A study of Mus musculus with 2 samples.

Results

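The HOX cluster genes are the protein-coding genes of the mouse annotation GENCODE M21 whose symbol is Hoxa, Hoxb, Hoxc or Hoxd followed by a number. There are 39 of them among 21951 protein-coding genes: 11 in HOXA, 10 in HOXB, 9 in HOXC and 9 in HOXD. They were chosen by name, and accessibility was read within 1 kb of every annotated start site and across each cluster with 100 kb either side. The windows held 17 of the 21194 accessible regions of replicate 1 and 19 of the 22620 of replicate 2.

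Accessibility was measured by ATAC-seq, in which a transposase inserts adapters into open DNA, in G1E, a male mouse cell line of strain C57BL/6J. Per the labels, G1E are Gata1- erythroid progenitors, and both biological replicates, of 50000 cells each, carry this loss of the erythroid transcription factor GATA1. The line has its own history in culture, there is no second line or untreated set, and nothing states whether the replicates came from separate cultures. The data are the authors' peak lists, thresholded by the irreproducible discovery rate (IDR), a measure of how alike peaks rank in repeated samples.

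Overlapping peaks were merged into regions, and a promoter region is one that comes within 1 kb of a start site. The signal is the authors' enrichment value of the strongest peak in the region, ranked here as a percentile of the replicate's own list. Signal values are not scaled between the replicates and the depth of the libraries is unknown, so absence from a list is not evidence of closed DNA. Peak lists also cannot tell a site open in a few cells from a site weakly open in all of them.

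Marker genes of the labelled cell type and of other cell types were also read. Their lists were chosen with earlier results of these data known, so they are not an independent check of the label. All 10 erythroid progenitor markers had a promoter region in both replicates, against 39.0% of all protein-coding genes, with mean percentiles from 11.6 at Tal1 to 90.0 at Nfe2. The Gata1 start was among them, with a signal of 5.47 and 5.93, which says nothing of whether its product is made. None of the 10 embryonic stem cell, 10 neuron or 10 granulocyte and macrophage markers had a promoter region in either replicate, against 40.5% of all protein-coding genes in replicate 1 and 42.1% in replicate 2. Promoters differ in the observed to expected ratio of the dinucleotide CpG, with a median of 0.552 over all genes. The list medians were 0.313 for the erythroid, 0.412 for the stem cell, 0.535 for the neuron and 0.218 for the granulocyte and macrophage markers. In the decile of all genes around the stem cell and neuron medians, 34.1% and 35.7% had a promoter region. Around the granulocyte and macrophage median it was 12.8% and 13.4%, and around the erythroid median 19.6% and 20.6%. In the authors' more lenient lists the granulocyte and macrophage markers had 1 and 2, and the other 2 marker lists had at most 1 in a replicate.

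HOX genes encode transcription factors with a homeodomain that give positions along the body axis their identity. Within a cluster the genes lie in the order in which they are used from head to tail, and genes at the same place in different clusters, called paralogs, are numbered alike. Polycomb complexes keep clusters silent where they are not used and trithorax proteins keep them active. In blood, genes such as Hoxa9, Hoxa10 and Hoxb4 are known from stem and progenitor cells and decline as cells mature.

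The sequences below are up to 200 bases around the summit of 6 of the 14 regions that were listed in both replicates, named by cluster and by their order along the chromosome. They are read from the mm10 genome on the plus strand, and a stretch in an annotated untranslated region was left out. Capitals mark exact matches, on either strand, to these strings: AGATAA for GATA factors, CAGATG for the TAL1 E-box, TGTGGT for RUNX, CCGGAA for ETS, CCAAT for NFY, GGGCGG for SP or KLF, TGANTCA for AP-1, TGATTNAT for HOX with PBX and TGACAG for MEIS, where N is any base. None of the strings contains another, and the CTCF core, also searched, was matched in none of the 14. The opening 2 are promoter regions of HOX genes.
HOXB-1, at the start of Hoxb13, chr11:96194165-96194315: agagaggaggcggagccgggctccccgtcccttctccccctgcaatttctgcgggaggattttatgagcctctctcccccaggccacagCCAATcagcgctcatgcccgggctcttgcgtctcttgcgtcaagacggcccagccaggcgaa
HOXC-4, in an intron shared by Hoxc5 and Hoxc6, chr15:102999326-102999525: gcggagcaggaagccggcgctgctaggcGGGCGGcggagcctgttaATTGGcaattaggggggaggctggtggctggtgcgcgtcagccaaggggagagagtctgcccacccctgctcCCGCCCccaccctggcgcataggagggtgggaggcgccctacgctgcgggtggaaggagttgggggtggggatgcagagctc
HOXC-6, in an intron of Hoxc4, shown for its pair of NFY matches, chr15:103021122-103021321: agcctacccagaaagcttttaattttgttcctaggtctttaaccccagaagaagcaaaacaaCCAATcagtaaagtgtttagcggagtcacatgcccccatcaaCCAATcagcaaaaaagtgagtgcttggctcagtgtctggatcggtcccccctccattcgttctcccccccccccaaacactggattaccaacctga
HOXD-3, the sole region inside the HOXD cluster, chr2:74715868-74716067: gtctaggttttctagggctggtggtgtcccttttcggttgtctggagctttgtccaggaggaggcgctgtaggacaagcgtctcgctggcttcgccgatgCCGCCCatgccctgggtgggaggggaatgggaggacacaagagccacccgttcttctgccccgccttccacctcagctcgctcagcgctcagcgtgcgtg
HOXC-9, beyond Hoxc4, shown for its GATA match, chr15:103067854-103068053: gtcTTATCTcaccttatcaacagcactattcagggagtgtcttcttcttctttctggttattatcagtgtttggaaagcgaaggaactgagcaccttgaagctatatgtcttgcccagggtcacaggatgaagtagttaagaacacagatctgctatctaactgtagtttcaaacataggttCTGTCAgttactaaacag
HOXD-7, in an intron of Mtx2, the region of highest signal and with no match, chr2:74862191-74862390: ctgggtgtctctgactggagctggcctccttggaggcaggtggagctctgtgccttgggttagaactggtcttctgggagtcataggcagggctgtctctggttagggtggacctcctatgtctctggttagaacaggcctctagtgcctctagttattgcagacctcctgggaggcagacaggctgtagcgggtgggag

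Few HOX genes had a listed promoter region, and those that did lay in HOXC and at the tail end of HOXB. A promoter region was listed for 5 of the 39 HOX genes in replicate 1 and for 4 in replicate 2, which is 12.8% and 10.3% of them, against 40.5% and 42.1% of all protein-coding genes. The 4 listed in both replicates were Hoxb13, Hoxc5, Hoxc6 and Hoxc10, or 10.3% of the HOX genes against 39.0% of all protein-coding genes. Hoxc4 had a promoter region in replicate 1 alone, and 34 HOX genes had none in either replicate. By place along the body axis, the genes listed in both replicates were 0 of the 12 anterior ones (paralog groups up to 4), 2 of the 11 central ones (5 to 8) and 2 of the 16 posterior ones (9 and above). They belonged to 4 of the 13 paralog groups, with 1 member each. A list over both replicates that the authors label as replicated held more regions, and there 11 HOX genes had a promoter region, or 28.2% of them, against 56.5% of all protein-coding genes. Those 11 include the paralogs Hoxa10 and Hoxc10, and Hoxa13 and Hoxb13.

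**Figure D1:**
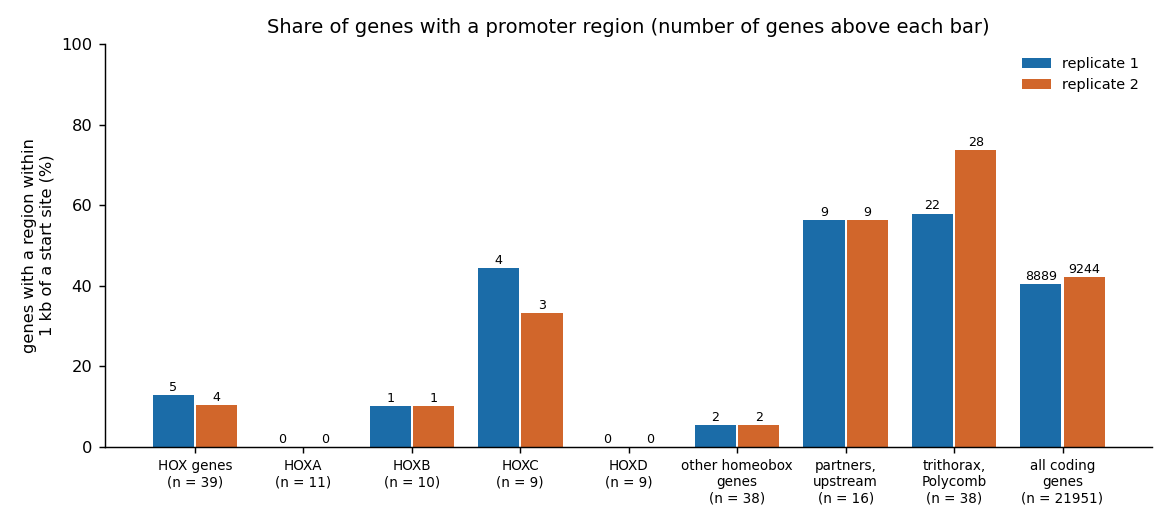
Share of genes (%, vertical axis) with a region within 1 kb of a start site in replicate 1 (blue) and replicate 2 (orange), for the HOX genes, each HOX cluster, 3 lists of related genes and all protein-coding genes, with the number of genes above each bar. HOXA and HOXD stand at 0, HOXC at 44.4% and 33.3%, and all protein-coding genes at 40.5% and 42.1%.

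The 4 genes rested on 3 places, since Hoxc5 and Hoxc10 shared a region. Hoxb13, a gene of the tail bud and the prostate, has its start at chr11:96194316 inside a region with signal 8.35 in replicate 1 and 7.25 in replicate 2, at the 52.2nd and 32.4th percentiles. Hoxc10, a gene of the lumbar cord and hindlimb, has its start at chr15:102966796, and the region ended 30 bp and 23 bp upstream of it. That region had signal 9.09 and 12.8, at the 59.1st and 78.4th percentiles, the highest rank by signal of any HOX promoter in each replicate. Ranked by the authors' −log10 p value instead, it stood at the 46.9th and 63.1st percentiles. The region counted for Hoxc6 then stood at the 71.1st and 60.5th, so the order in replicate 1 depends on the measure.

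Hoxc5 and Hoxc6, genes of the neck and thorax, were counted through transcripts that are not translated. The Hoxc10 region lay 677 bp and 670 bp from the start of a long processed transcript of Hoxc5 at chr15:102967443. The protein-coding transcript of Hoxc5 starts at chr15:103013815, and the nearest region was 7.30 kb away in replicate 1 and 1.54 kb in replicate 2. At Hoxc6 a region with signal 8.50 and 8.0, at the 53.7th and 40.5th percentiles, lay 691 bp and 701 bp from the start of a processed transcript. The protein-coding transcript of Hoxc6 starts at chr15:103009573, with the nearest region 9.73 kb and 2.39 kb away. Over the 62 start sites of protein-coding HOX transcripts, 3 had a region within 1 kb in replicate 1 and 2 in replicate 2, against 37.0% and 38.6% of the start sites of all protein-coding transcripts.

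With the start sites of the GENCODE basic transcript set, which leaves out those processed transcripts, 2 HOX genes, Hoxb13 and Hoxc10, kept a promoter region in both replicates. That is to be read against 37.7% of all protein-coding genes in the same set. With a window of 500 bp the same 2 genes were left, against 37.8% of all protein-coding genes. Of members close to the limit of 1 kb, Hoxc6 had start-to-region distances of 949 bp in replicate 1 and 406 bp in replicate 2 at its outermost start. Hoxc4 was just outside in replicate 2, with the nearest region 1043 bp from its downstream start.

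Hoxc4, a gene of the neck, was the weakest of the 5. In replicate 1 a region with signal 4.32 overlapped its downstream start at chr15:103034395, at the 4.19th percentile and with an IDR of 0.0466. In replicate 2 the matching peak was in the lenient list alone, with signal 6.27 and an IDR of 0.138. At the upstream start of Hoxc4, chr15:103018934, the lenient lists held a peak in both replicates, with signal 5.49 and 4.41.

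**Figure D2:**
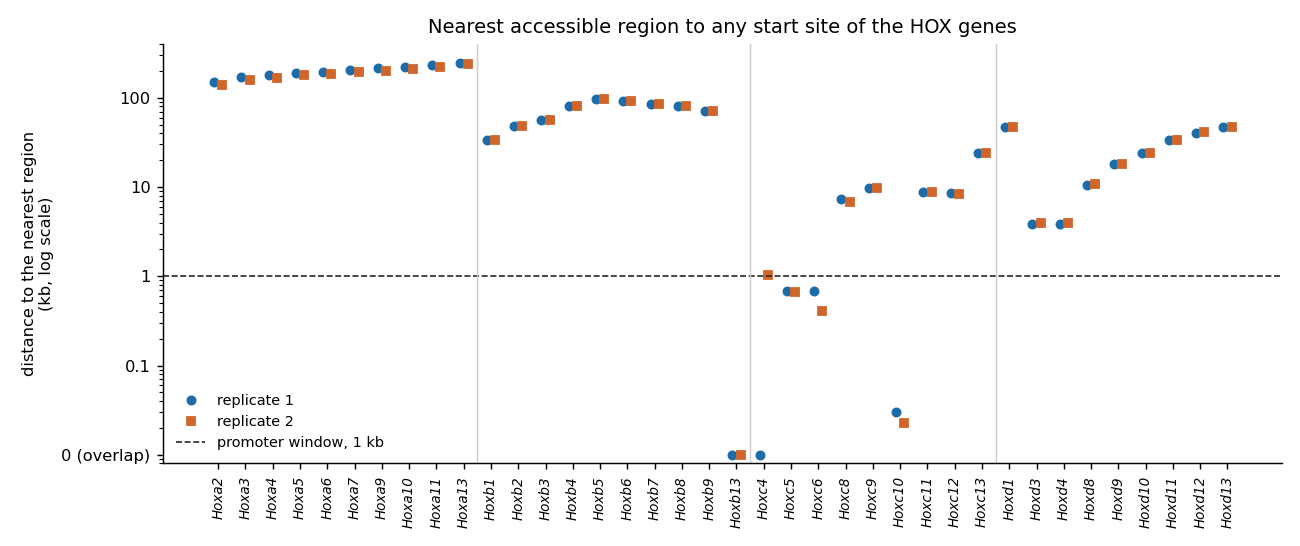
Distance (kb, log scale, vertical axis; 0 drawn at the bottom) from any start site of 38 HOX genes to the nearest accessible region in replicate 1 (blue circles) and replicate 2 (orange squares), with the 1 kb promoter window dashed. The HOXA genes drawn lie 140 kb or more from a region, while the HOXC genes lie within 24.1 kb of one.

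The HOXA cluster, on chromosome 6, had no region in the thresholded list of either replicate, and none was listed in the 100 kb on either side. The genes include Hoxa9 and Hoxa10, known from blood progenitors, Hoxa2 of the hindbrain, Hoxa3 of the thymus, Hoxa5 of the lung, Hoxa11 of the uterus and limb, and Hoxa13 of the digits, with Hoxa4, Hoxa6 and Hoxa7 between them. The nearest region was 152 kb away at Hoxa2 and 248 kb at Hoxa13 in replicate 1, and 140 kb and 236 kb in replicate 2. The stretch without a region in either list ran over 604 kb and held 14 protein-coding starts: the 11 HOXA genes, Evx1, which encodes a homeodomain factor next to the cluster, 5730596B20Rik and Gm28308.

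Long stretches without a region are common in these lists, but few hold that many genes. Of 25778 stretches between consecutive regions, with a median of 19.1 kb, 933 were at least as long as that of HOXA and 92 held at least 14 protein-coding starts. In 33 of those 92, most of the genes were olfactory or vomeronasal receptors by symbol. Of 9075 bins of 300 kb, 48.7% had no summit in either replicate. Of the 561 bins with 9 or more protein-coding genes, 13.7% had none. The stretches and bins were counted after the HOXA values had been seen.

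Below the threshold, the HOXA cluster was not empty. The lenient lists held 1 region in the HOXA window in each replicate, at the outermost start of Hoxa7. Hoxa7 is a gene of the thorax that is also known from leukaemia, and this start belongs to a transcript outside the basic set. The region had signal 7.97 in replicate 1, at the 68.6th percentile of the lenient list, and 3.46 in replicate 2, at the 11.8th. The IDR was 0.155 and 0.381, while no peak in the thresholded lists exceeded 0.05. That limit does not account for every unlisted peak, since 129 of 16252 unlisted ranked peaks in replicate 1 and 120 of 18740 in replicate 2 were at or below it. Hoxc8 had a lenient peak in replicate 1 (signal 2.74), near the start of a transcript with a retained intron, outside the basic set. With Hoxa7, Hoxc8 and, in both replicates, Hoxc4, the lenient lists gave 7 and 6 HOX genes, or 6 in both replicates. The same lists gave 44.9% and 46.5% of all protein-coding genes, or 43.3% in both replicates, and 32 HOX genes still had no region in either.

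The HOXB cluster, chr11:96194316-96368256, had its regions at the tail end. HOXB-1 lay at the start of Hoxb13. HOXB-2 and HOXB-3 followed, 5.35 kb and 5.92 kb from that start, at the annotated starts of the small noncoding genes Gm27898 and Gm27605. HOXB-2 ranked at the 12.9th and 3.54th percentiles, the lowest of the 14 shared regions, and HOXB-3 at the 46.0th and 22.0th. The next 199 kb held no region in either replicate and 9 HOX genes, from Hoxb9 to Hoxb1, among them Hoxb4, known for expanding blood stem cells.

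Within that stretch the distance to a region was 70.9 kb at Hoxb9, 81.4 kb at Hoxb8, 86.1 kb at Hoxb7, 92.0 kb at Hoxb6 and 96.5 kb at Hoxb5 in replicate 1. It was 81.7 kb at Hoxb4, 56.2 kb at Hoxb3, 48.3 kb at Hoxb2 and 33.7 kb at Hoxb1, and replicate 2 differed by 27 bp or less at each of the 9 genes. The region beyond Hoxb1 was HOXB-4, intergenic, with signal 6.27 and 8.06. HOXB-5, in an intron of Skap1, which encodes a T cell adaptor, was listed in replicate 1 alone, with signal 6.27, and its lenient peak in replicate 2 had signal 6.23. The protein-coding neighbours Skap1, Calcoco2 (an autophagy receptor) and Ttll6 (a tubulin-modifying enzyme) had no promoter region in either replicate.

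HOXC, chr15:102921103-103036852, was the cluster with the most regions. It had 5 inside the cluster in replicate 1 and 7 in replicate 2, which is 43.2 and 60.5 per Mb over 116 kb. Over its window of 316 kb, closer in length to the bins of 300 kb, the density was 22.2 and 25.3 per Mb. The median of the bins with 9 or more protein-coding genes was 26.7 per Mb in each replicate. Of the regions inside the cluster, 4 were shared: HOXC-1, HOXC-2, HOXC-4 and HOXC-6. Hoxc12 lay 8.48 kb and 8.39 kb from the nearest region, Hoxc11 8.84 kb in both replicates, Hoxc9 9.67 kb in both and Hoxc8 7.32 kb and 6.77 kb. Hoxc13, a gene of hair and nails at the tail end of the cluster, was 24.1 kb and 24.0 kb away.

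HOXC-1 lay in an exon of Hotair, the long noncoding RNA between Hoxc12 and Hoxc11 that is known from human cells to bind Polycomb proteins. It had signal 6.98 and 7.64, at the 37.1st and 37.3rd percentiles, and no region was listed within 1 kb of the start of Hotair itself. HOXC-1 was classed as lying at a noncoding start through the small noncoding gene Gm27337, annotated at the same place. HOXC-6, in an intron of Hoxc4 2.19 kb from its upstream start, had signal 6.79 and 6.52. HOXC-3, in an exon of Hoxc6, was listed in replicate 2 with signal 5.25, and replicate 1 had it in the lenient list with 4.68. HOXC-5 (signal 5.59, in an intron of Hoxc5) and HOXC-8 (4.15, in an intron of Hoxc4) were also listed in replicate 2 alone.

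Outside HOXC on the side of Hoxc4, HOXC-9 lay 33.2 kb from that gene in intergenic DNA, with signal 9.04 and 11.2, at the 58.7th and 69.0th percentiles. HOXC-10, at the start of the long noncoding RNA Gm10830, was listed in replicate 1 alone with signal 10.1, and the lenient peak in replicate 2 had 6.86. No region was listed in the 100 kb on the side of Hoxc13, where the nearest was 178 kb away in both replicates.

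HOXD, chr2:74668310-74765142, had 1 region inside the cluster, the same in both replicates. HOXD-3 lay at the start of Hoxd3os1, an RNA antisense to Hoxd3, with signal 7.30 and 8.06, at the 40.5th and 41.6th percentiles. The start sites nearest to it were those of Hoxd4 and Hoxd3, 3.87 kb away in replicate 1. Hoxd8 was 10.6 kb away, Hoxd9 18.1 kb, Hoxd10 23.9 kb, Hoxd11 33.5 kb, Hoxd12 40.8 kb and Hoxd13, a gene of the digits, 47.5 kb, while Hoxd1 on the other side was 46.7 kb away. None of the 9 genes had a promoter region in the thresholded or the lenient lists.

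The HOXD flanks held accessible regions at genes outside the HOX family. Lnpk, which encodes a protein of the endoplasmic reticulum, had HOXD-1 and HOXD-2 at its start, HOXD-2 with signal 10.9 and 11.4, at the 73.5th and 69.8th percentiles. Mtx2, which encodes a mitochondrial import protein, had promoter regions in replicate 2 alone, HOXD-4 on its start with signal 6.45 and HOXD-5 with 8.24, and the lenient list of replicate 1 held a peak at HOXD-4 with signal 7.08. In Mtx2 introns, HOXD-6 had signal 7.80 and 10.1. HOXD-7 had 14.3 and 14.2, at the 91.0th and 85.4th percentiles, the highest of the 14 shared regions in both replicates, and lay 99.0 kb from Hoxd1. Evx2, the homeobox gene next to Hoxd13, had no promoter region.

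**Figure D3:**
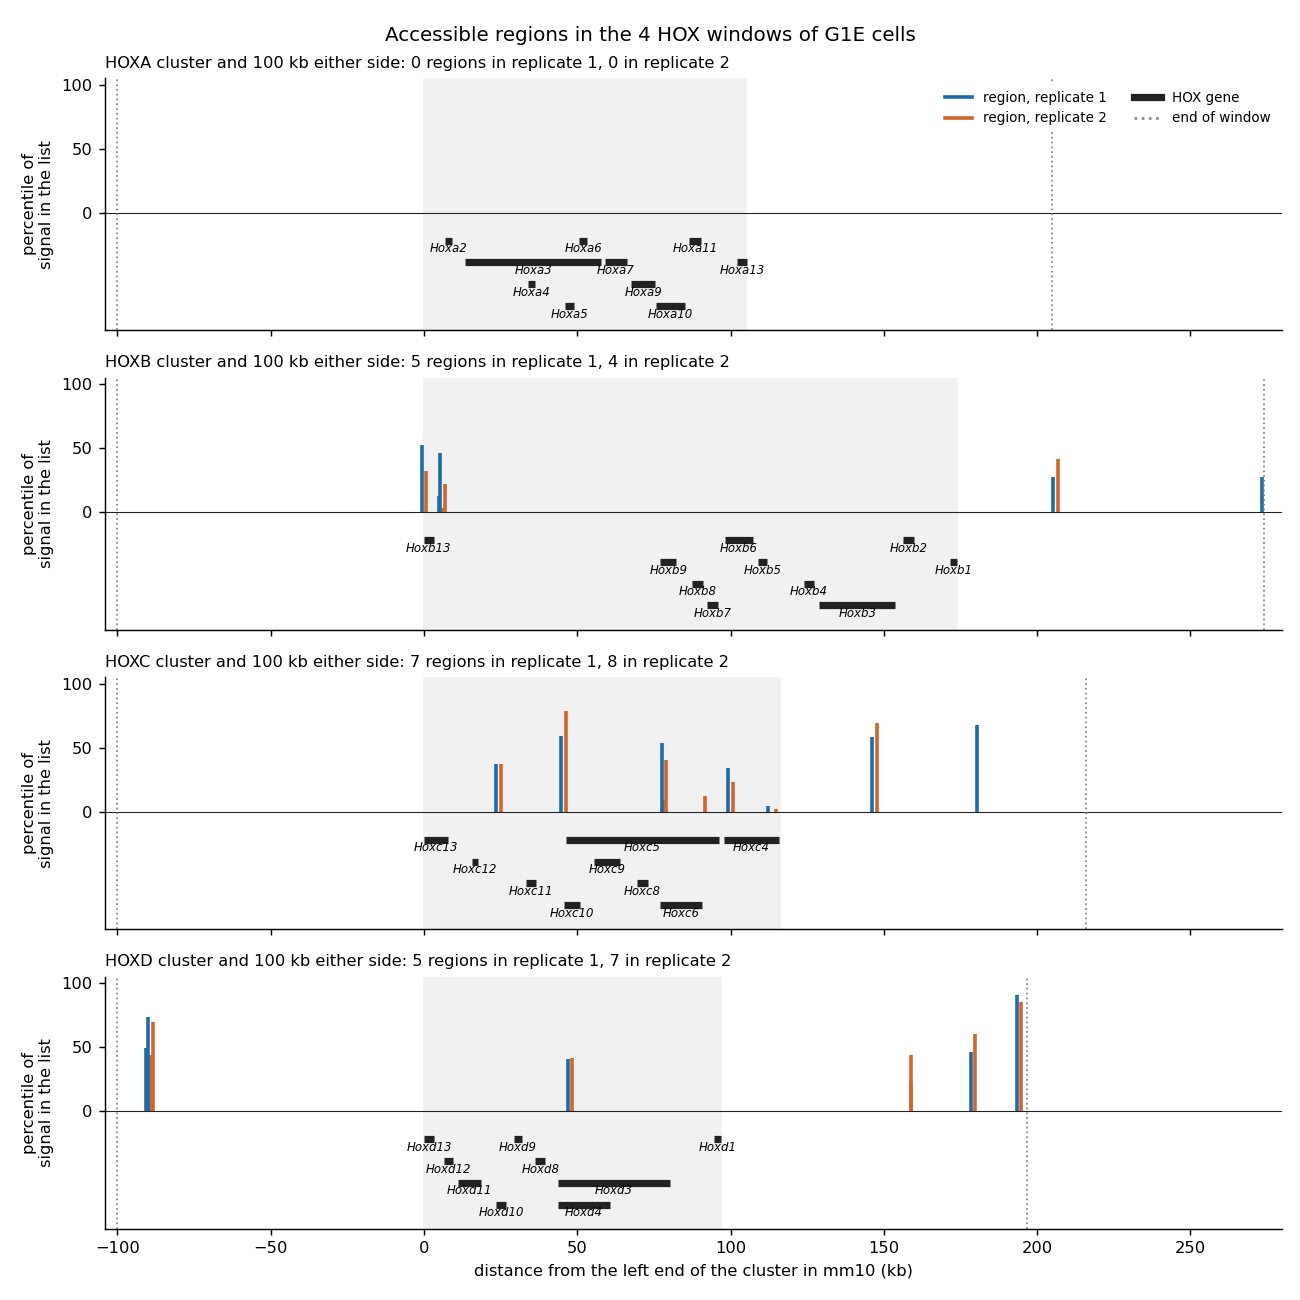
The 4 HOX windows, with distance from the left end of each cluster in kb on the horizontal axis and the cluster shaded. Vertical bars are accessible regions of replicate 1 (blue) and replicate 2 (orange), with height as the percentile of signal in the replicate's list, and black bars below are HOX genes. HOXA has none, HOXB has its regions at Hoxb13 and beyond Hoxb1, HOXC has them from 24.3 kb inside its left end onwards, and HOXD has 1 inside the cluster.

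Together the windows spanned 1290 kb and held 13.2 regions per Mb in replicate 1 and 14.7 in replicate 2, against 7.78 and 8.30 per Mb over the main chromosomes. The main chromosomes include DNA with few genes, while each window held 9 to 14 protein-coding starts. In the bins of 300 kb with 9 or more protein-coding genes the median was 8.0 summits in each replicate, or 26.7 per Mb, which is above the density of the windows. Per 300 kb, HOXA had 0 in both replicates, HOXB 4.01 and 3.21 regions, HOXC 6.65 and 7.60, and HOXD 5.05 and 7.07, all below that median.

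Of the 17 and 19 window regions, 14 overlapped between the replicates: 4 in HOXB, 5 in HOXC and 5 in HOXD. Of the 14, 8 lay inside a cluster and 13 were also in the authors' conservative list over both replicates, the exception being HOXB-2. The shares of all regions that overlap between the replicates or are in that list are not given here. These counts are therefore not a result about the windows. By site, 5 lay within 1 kb of any start of a protein-coding gene, 3 of these at HOX genes and 2 at Lnpk. Of the 3, HOXC-4 was counted through processed transcripts of Hoxc6 that are not translated. A further 4 lay at starts of noncoding genes and 5 farther than 1 kb from any annotated start. Summits in the replicates were 1 to 135 bp apart. The median percentile of the 14 was 47.8 in replicate 1 and 41.6 in replicate 2, with 6 and 5 of them above the 50th, so their ranks lay near the middle of the lists.

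**Figure D4:**
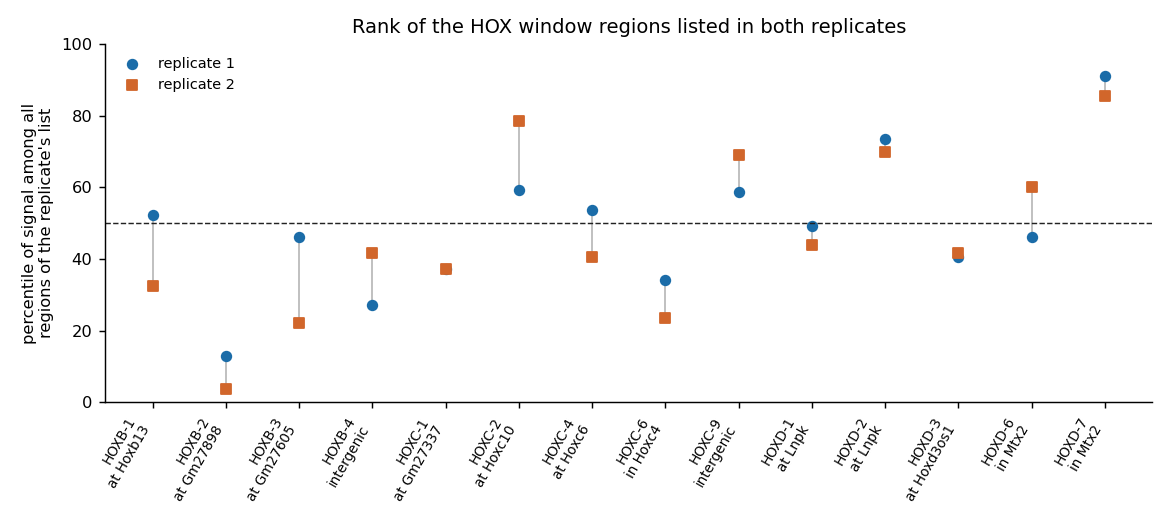
Percentile of signal (vertical axis) of the 14 HOX window regions listed in both replicates, among all regions of replicate 1 (blue circles) and of replicate 2 (orange squares), joined by a line for each region. HOXD-7 in Mtx2 stands highest at 91.0 and 85.4, and HOXB-2 lowest at 12.9 and 3.54.

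HOX promoters are rich in CpG, the dinucleotide that marks most broadly accessible promoters, so they were set beside promoters of like composition. In 1000 bp around the outermost start, the observed to expected CpG ratio had a median of 0.678 over the HOX genes, from 0.181 at Hoxb2 to 0.996 at Hoxa5, against 0.552 over all protein-coding genes. Of the 19 HOX genes in their own interquartile range of the ratio (0.577 to 0.768), 1 had a promoter region in both replicates, Hoxc10, against 59.1% of all genes in that range. Of the 31 HOX genes at or above the median ratio of all genes, 2 had one, Hoxc5 and Hoxc10, against 63.3% of all such genes. The other 2 genes had lower ratios, 0.450 at Hoxb13 and 0.536 at Hoxc6. None of the 20 HOX genes in the 4 highest deciles of the ratio had a promoter region in both replicates, where the share of all genes was 61.5% to 69.9%.

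**Figure D5:**
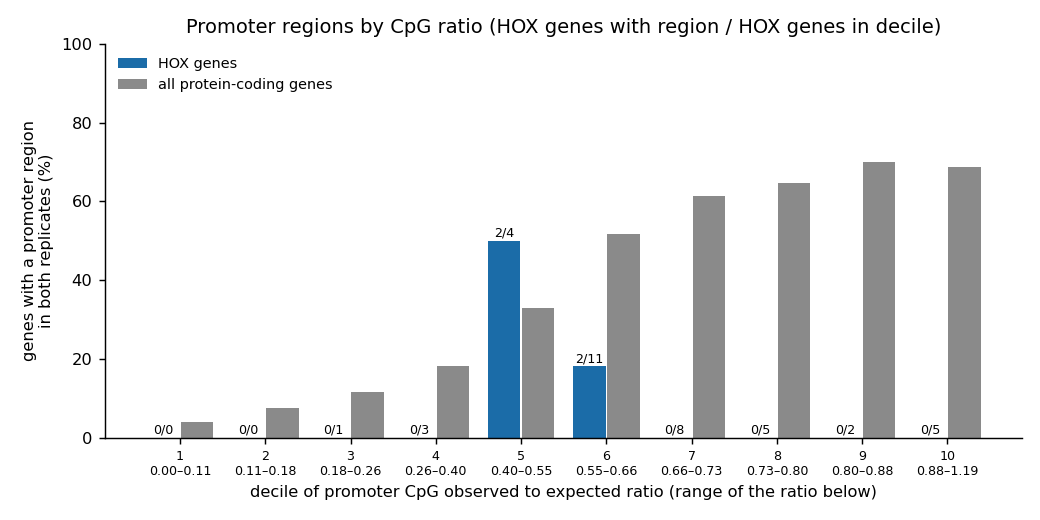
Share of genes with a promoter region in both replicates (%, vertical axis) by decile of the promoter CpG ratio, for HOX genes (blue, with the number that have a region over the number in the decile) and all protein-coding genes (grey). The share of all genes is 3.97% in the lowest decile and 68.7% in the highest, while the HOX genes with a region lie in deciles 5 and 6.

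The long noncoding and miRNA genes of the windows were read in the same way. Other small noncoding genes, such as those at HOXB-2, HOXB-3 and HOXC-1, were not counted, and the share of all such genes is not given. Of 28 long noncoding genes with a start in the windows, 2 had a region within 1 kb in both replicates, against 12.4% of all long noncoding genes. Both were in the HOXD window: Hoxd3os1 and 4930445N08Rik, which shares its start with Lnpk. Gm10830 and Gm28876 in the HOXC window had one in replicate 1, HOXC-10 for each of them. The share of all long noncoding genes with a region in replicate 1 is not given here. No region was listed at Hottip, Hotairm1, Halr1, Hoxaas2, Hoxaas3 or Hoxa11os of HOXA, at Hoxb3os or Hoxb5os of HOXB, or at Haglr of HOXD. The 7 miRNA genes of the windows, which include Mir10a, Mir10b, Mir196a-1, Mir196a-2, Mir196b and Mir615, had none in either replicate, against 8.08% of all miRNA genes with one in either. Of the 10 protein-coding genes in the windows that are not HOX genes, Lnpk had one in both replicates and Mtx2 in replicate 2. The shares of all protein-coding genes were 39.0% in both replicates and 42.1% in replicate 2.

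In 200 bp around each summit, the NFY motif CCAAT, bound by a factor common at promoters, was the one most often matched. Over the 14 shared regions motifs were counted at the summit of replicate 1. NFY was in 6 of the 14: HOXB-1, HOXB-3, HOXC-2, HOXC-4, HOXC-6 and HOXD-1. All 3 promoter regions of HOX genes held it. Over the window regions of each replicate it was in 41.2% and 47.4%, against 29.3% and 28.9% of all regions and 37.3% and 36.6% of all promoter regions. HOXC-6 had 2 matches, which start 38 bp before and 4 bp after its summit, in the intron of Hoxc4.

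The GATA motif was in 2 of the 14, HOXB-4 and HOXC-9, both outside the clusters and far from any start. It was in 17.6% and 10.5% of the window regions of the replicates, against 25.5% and 24.5% of all regions and 41.9% and 40.0% of all regions far from starts. None of the regions inside a cluster that both replicates listed held it. With 400 bp around the summit the number was 5 of 14, and 35.3% and 31.6% of the window regions of the replicates held it. Of all regions, 33.2% and 32.1% held it at that length, and 52.0% and 49.8% of those far from starts. With 100 bp it was in 0 of the 14 and in 5.88% and 0.0% of the window regions, against 16.6% and 15.8% of all regions.

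The AP-1 motif was in 3 of the 14, against 8.98% and 9.31% of all regions. Its middle base was left open, and the matches were in HOXB-4, HOXC-2 and HOXD-6. SP or KLF was in 4, MEIS in 3, and TAL1 E-box and RUNX in 1 each. Over all regions of replicates 1 and 2 the shares were 31.0% and 31.0% for SP or KLF, 16.1% and 15.8% for MEIS, 15.3% and 15.2% for TAL1 E-box and 16.7% and 16.8% for RUNX. ETS, HOX-PBX and the CTCF core were matched in none of the 14. At the summits of replicate 2, however, ETS was in 3 of its 19 window regions, or 15.8%, and in 0 of the 17 of replicate 1. Of all regions, 14.3% and 14.4% held ETS, 1.29% and 1.42% HOX-PBX and 4.40% and 5.34% the CTCF core. A match is a string in the DNA and not a measured binding site, and 14 regions are too few to rank motifs.

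Genes that act with or on HOX genes had promoter regions in larger shares than the HOX genes, a difference that was not tested. Among 16 partners and upstream factors, 8 had a promoter region in both replicates, against 39.0% of all genes. The list's median CpG ratio was 0.672, and in the decile of all genes around it 61.5% had one in both replicates. The highest mean percentiles were at Hmgb1 (96.3), an architectural protein that helps HOX proteins bind DNA, Pknox1 (77.7) and Pbx3 (75.5), the last 2 homeodomain cofactors. Meis1, the cofactor best known beside Hoxa9 in blood, was listed in replicate 1 with signal 7.88 and in replicate 2 in the lenient list only, and Pbx2 in replicate 2 with 4.91. Cdx1, Cdx2 and Cdx4, activators of HOX genes in the embryo, had none in either replicate, nor did Meis2 and Pknox2.

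Among 38 trithorax and Polycomb regulators, 22 had a promoter region in both replicates, or 57.9%, against 39.0% of all genes. In the decile of all genes around the list's median CpG ratio of 0.813 the share was 69.9%. By mean percentile the highest were Nup98 (93.9), Kdm6a (90.4) and Phf19 (90.2). Nup98 is a nucleoporin fused to HOX proteins in human leukaemia. Kdm6a is a demethylase of the Polycomb histone mark, and Phf19 an accessory protein of Polycomb complex PRC2. The PRC2 core genes Ezh2, Eed and Suz12 had mean percentiles of 74.7, 53.4 and 70.4, and Kmt2a, the trithorax methyltransferase of HOX genes, 37.1. Of the genes for subunits of Polycomb complex PRC1, Rnf2 (58.5) and Pcgf1 (74.2) had one in both replicates, and Phc1 and Phc3 in replicate 2. The 10 regulators with none in either replicate included the PRC1 genes Bmi1, Cbx2, Cbx6, Cbx7, Cbx8, Pcgf2, Phc2 and Ring1, and the demethylase gene Kdm6b. Of these, the lenient lists held Phc2 in both replicates and Cbx7 in replicate 2. Aff4, Dot1l, Kmt2d and Wdr5 were also listed in replicate 2 alone.

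Other homeobox genes of related families were also seldom listed. Of 38, 2 had a promoter region in both replicates, or 5.26%, against 39.0% of all genes. In the decile of all genes around the list's median CpG ratio of 0.708 the share was 61.5%. The other 36 had none in either replicate, as did 12389 of the 21951 protein-coding genes. Dlx1, a forebrain gene, had signal 11.1 and 14.0, and Hhex, a gene of blood and vessels, 6.79 and 10.1. The opening 10 by alphabet without one were Dlx2, Dlx3, Dlx4, Dlx5, Dlx6, Emx1, Emx2, En1, En2 and Evx1. The median CpG ratio of this list was 0.708, next to 0.678 for the HOX genes, 0.672 for the partners and 0.813 for the trithorax and Polycomb genes.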

How the data were processed

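ATAC-seq peak lists of 2 biological replicates of G1E (1 group) were used, on build mm10 per the labels. The sources used here do not give the tools of alignment and peak calling or their versions. The deposited lists give a signal value and a −log10 p value per peak, and the ranked lists a score, the −log10 IDR, all as the authors made them. The thresholded lists held 26083 and 27810 peaks. Overlapping intervals on chromosomes 1 to 19, X and Y were merged, with the signal of the strongest peak. The lenient lists held 35229 and 39290 regions. The conservative, the thresholded and 1 replicated list over both replicates were used as alternatives or to describe members. A further 4 lists over both replicates were not used, 1 of them because its 8 replicate columns carry no sample name. Start sites came from GENCODE M21, and the first 30 bases of 86 of 87 HOX transcripts equalled the genome used. Replicates shared a region at an overlap of 1 bp. CpG ratios used 500 bp either side of the outermost start, and motifs 200 bp around the summit. Every value is a description without a test, since there is 1 group and depth is unknown. The members, the lists and the motifs were chosen with earlier results of these data known. A HOX gene, members of the lists and sequences of regions that are withheld are not reported here by name, though counts include them. Of the lists, the named genes were those with no promoter region in either replicate (up to 10, by alphabet) and the 3 of highest mean percentile, and others were picked with their values known. Alternatives were other lists, windows, start sites and overlaps. Merging, promoter assignment and motif matching were tested on simulated data. Python 3.11.15, pandas 2.3.3 and pysam 0.24.0 were used.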

Additional observations from a re-analysis of the deposited data

How the results depend on the processing

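The count of HOX genes with a promoter region in both replicates, 4, was 2 with the stronger 50% of regions (Hoxc5 and Hoxc10), 2 with a window of 500 bp and 2 with basic transcripts. It was 4 to 5 without a replicate. It was 11 in the replicated list over both replicates, which was chosen as an alternative after seeing the data. Under the other alternatives it was 3 to 6: unmerged peaks, the lenient lists, the conservative and thresholded lists over both replicates, a reciprocal overlap of 50%, a window of 2000 bp, the outermost start and summits. The count of shared regions in the windows, 14, was 22 in the lenient lists, 4 with the stronger 50% of regions, 75 in the replicated list, 25 with flanks of 200 kb and 8 in the clusters alone. It was 17 to 19 without a replicate. The 0 shared regions in the HOXA window became 1 in the lenient lists and 1 with flanks of 200 kb. Of 37 alternatives for single genes, motifs and lists, 22 moved the value by less than 1.5 times or the spread between replicates, and 15 by more. No paired analysis was possible because there is 1 group. The depth is unknown, so absence from a list may reflect depth, and 2 replicates of a single line give no spread between lines.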

Other observations

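The replicated list over both replicates held 41 regions in the clusters: 6 in HOXA, 7 in HOXB, 25 in HOXC and 3 in HOXD. How it was derived from its source files is not given in the sources used here. In it 11 HOX genes, 28.2% of them, had a promoter region, against 56.5% of all protein-coding genes: Hoxa7, Hoxa10, Hoxa13, Hoxb13, Hoxc4, Hoxc5, Hoxc6, Hoxc9, Hoxc10, Hoxc11 and Hoxd8. Hoxa13 had a signal of 7.93 there, at the 87.2nd percentile of that list, and Hoxa7 had 6.71, at the 83.7th. Hoxc11 had 7.32, Hoxc9 5.71, Hoxd8 4.88 and Hoxa10 3.05. Of these, Hoxa10, Hoxa13, Hoxc9, Hoxc11 and Hoxd8 had no peak within 1 kb in the lenient list of either replicate.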
